A study of Mus musculus with 192 samples.

Results

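The integrin genes Itga4, Itga6, Itgal, Itgam, Itgb1, Itgb2, Itgb3 and Itgb7 were followed across the surface phenotypes of single mouse bone marrow cells. All 8 were chosen by name, and each had a row among the 20764 genes counted. Their mRNA was described over a lower, a middle and an upper class of the sorter's signals for CD135, CD150, Sca-1 and cKit, each with 32 cells per library pool before filtering, and Itgam also over such classes of the CD11b signal, since CD11b is the protein it encodes.

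The cells came from C57BL/6 mice aged 8 to 16 weeks and are labelled LSK, the lineage-negative, Sca-1-positive, cKit-positive fraction that holds blood stem cells and multipotent progenitors. After magnetic enrichment of the marrow for cKit, 192 cells were sorted singly and sequenced in 2 library pools of 96 with CEL-seq2, which counts each captured mRNA once through a unique molecular identifier (UMI). The study's title links lower Dach1 to lymphoid priming. All groups below are divisions of these cells by antibody signal, and no treatment or genotype is compared. No animal is named in the labels, which makes all cells 1 sample. Intervals therefore cover counting error only, no test across animals was possible, and the 2 pools show the spread between libraries.

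Integrins are receptors made of 1 alpha and 1 beta chain that bind matrix proteins or counter-receptors on other cells, and they hold blood progenitors in the marrow niche. The α4β1 pair (VLA-4) binds VCAM-1 and fibronectin, α6β1 binds laminins, α4β7 binds MAdCAM-1, and the β2 pairs αLβ2 (LFA-1) and αMβ2 (Mac-1) bind ICAM family proteins, with αMβ2 known from myeloid cells. The β3 chain pairs with αIIb on megakaryocytes and platelets, and with αv elsewhere. CD135 is the Flt3 receptor, which marks multipotent progenitors with lymphoid potential, while CD150 marks stem cells among LSK cells.

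Of the 192 cells, 191 passed the filter on depth. Their gene UMIs came to 3704842, and single cells ranged from 3927 to 49372 around a median of 17715. Median depth was 18031, 17426 and 17227 UMIs in the lower, middle and upper CD135 class, but 16051, 17363 and 20480.5 over the cKit classes, so levels are given as UMIs per 1000000 gene UMIs of the class (CPM) and shares of cells after thinning each cell to 12147 UMIs. All 7 LSK markers on the list had UMIs, led by Cd34 with 1845 and Kit with 1564. Slamf1, which encodes CD150, had 17. Of the markers of other cells, the mast cell and basophil list had the most UMIs (319, or 86.1 CPM, of which Cpa3 gave 293), followed by the NK list (262, or 70.7 CPM, of which Nkg7 gave 240). The monocyte and macrophage, erythroid, B-cell and megakaryocyte lists had 87 to 119 UMIs, the neutrophil list 14 with S100a8 at 0, and the dendritic list 9. No T-cell, eosinophil or stromal marker had a row. NK markers stood at 71.2, 66.9 and 74.1 CPM over the CD135 classes. The 2 pools shared all 96 cell indices by design, and no 2 cells had identical counts.

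In RefSeq (GRCm38.p6), 4 of the 8 members had a promoter window. The last 100 bases before the annotated start are shown for these 4, the only members with a window. Of these, Itgb1 was level over the CD135 classes. With both pools summed, Itga4 was lower and Itgam and Itgb7 were higher in CD135-upper cells. Each is written 5′ to 3′ on the gene's own strand, and capitals mark a match on either strand to the PU.1 core GAGGAA, the GATA motif AGATAA, the RUNX motif TGTGGT or the Sp1 motif GGGCGG.
Itga4, chr2:79255326-79255425, plus strand: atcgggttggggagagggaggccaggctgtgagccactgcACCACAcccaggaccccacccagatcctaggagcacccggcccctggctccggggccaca
Itgb1, chr8:128685554-128685653, plus strand: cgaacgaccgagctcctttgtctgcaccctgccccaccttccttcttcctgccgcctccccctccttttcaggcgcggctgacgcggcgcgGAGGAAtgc
Itgam, chr7:128062540-128062639, plus strand: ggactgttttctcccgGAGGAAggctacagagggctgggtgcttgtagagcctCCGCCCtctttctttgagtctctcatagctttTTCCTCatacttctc
Itgb7, chr15:102231936-102232035, minus strand: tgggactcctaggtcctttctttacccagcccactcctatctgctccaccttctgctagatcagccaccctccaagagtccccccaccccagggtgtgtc
Over 250 bases upstream, Itgam held 2 PU.1 cores and 1 Sp1 motif, Itgb1 held 1 of each, Itga4 held 1 RUNX and 1 Sp1 motif, and Itgb7 held no match. None of the 4 held AGATAA. Among all 32851 upstream windows of that length, GAGGAA occurred in 23.3%, AGATAA in 9.99%, TGTGGT in 14.05% and GGGCGG in 32.7%. No 2 of the capitalised matches overlap, and a match is a description of the sequence only.

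Itga4 (ENSMUSG00000027009, chromosome 2, 79255426 to 79333123, plus strand, GRCm38) gave 858 UMIs, with at least 1 in 93.2% of cells. Itgb1, which encodes the shared β1 chain (ENSMUSG00000025809, chromosome 8, 128685654 to 128733200, plus strand), gave 667 UMIs in 170 cells (89.0%). Itga6 (ENSMUSG00000027111, chromosome 2, 71745616 to 71858416, plus strand) gave 315 UMIs in 121 cells (63.4%). These 3 were the members that most cells showed.

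The other 5 were found in fewer cells. Itgal, encoding αL (ENSMUSG00000030830, chromosome 7, 127296260 to 127335138, plus strand), gave 142 UMIs in 80 cells (41.9%). Itgb2, encoding its β2 partner (ENSMUSG00000000290, chromosome 10, 77530252 to 77565708, plus strand), gave 105 UMIs in 63 cells (32.98%), and Itgam (ENSMUSG00000030786, chromosome 7, 128062640 to 128118491, plus strand) 98 UMIs in 60 cells (31.4%). Itgb7 (ENSMUSG00000001281, chromosome 15, 102215995 to 102231944, minus strand) gave 29 UMIs in 24 cells (12.6%), and Itgb3 (ENSMUSG00000020689, chromosome 11, 104608000 to 104670476, plus strand) 16 UMIs in 13 cells (6.81%). Part of Itga4 is overlapped on the opposite strand by Cerkl, which had 16 UMIs. Itgam is overlapped on the same strand by Gm49368, which had no row, and whether the counting used strand is not given in the sources used here.

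CD135 divided the alpha chains in opposite directions. Itga6 mRNA was lower and Itgal mRNA was higher in CD135-upper cells, Itgam and Itgb7 were also higher there, and Itgb3 had no UMI there. Itgb1 and Itgb2, the chains that pair with several of these alphas, had intervals that spanned 0 on the log2 scale. The plot of levels over the CD135 classes shows all 8 genes with the value of each pool.

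**Figure D1:**
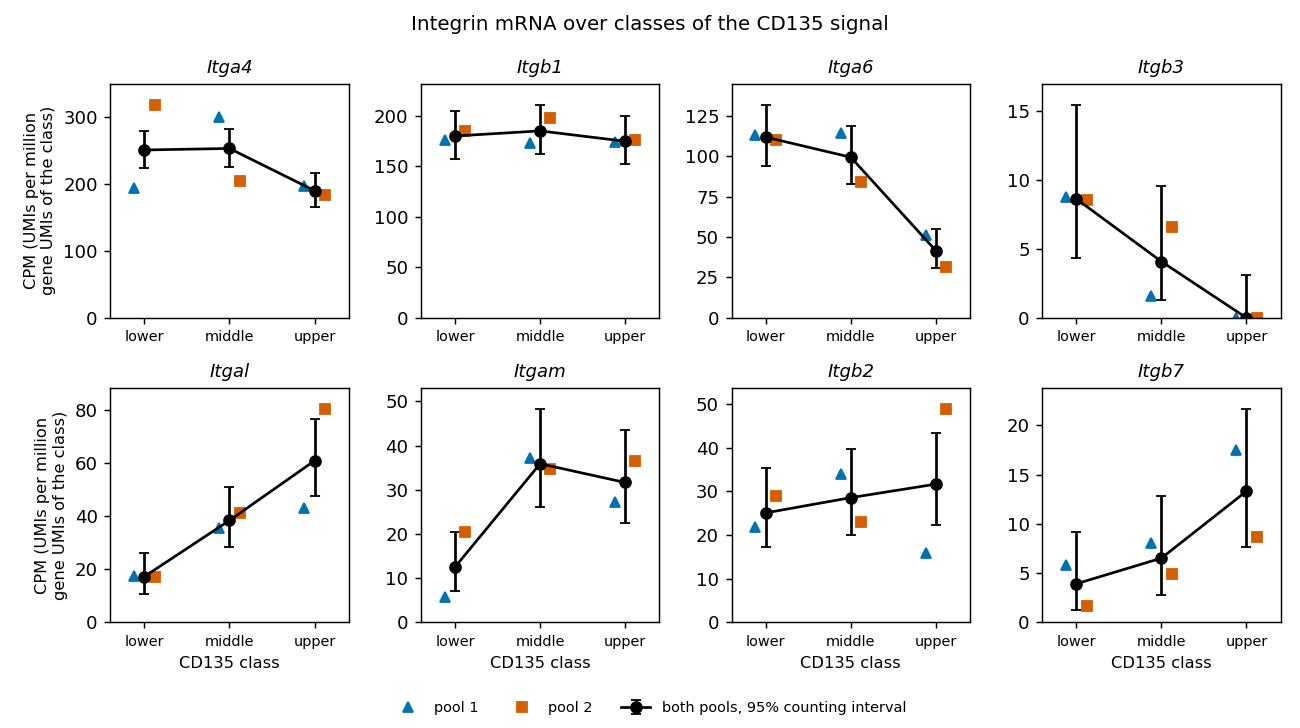
Level of each integrin mRNA (y axis, CPM, from 0) in the lower, middle and upper class of the CD135 signal (x axis), with black points for both pools and 95% Poisson intervals, triangles for pool 1 and squares for pool 2. Itga6 goes from 112 to 41.6 CPM and Itgal from 17.2 to 60.8 CPM between the lower and upper class, while Itgb1 stays between 174.8 and 185.1 CPM.

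Itga6 stood at 112 CPM in the lower, 99.5 CPM in the middle and 41.6 CPM in the upper CD135 class (63, 64 and 64 cells). Its levels in the lower and middle classes did not differ beyond counting error (log2 ratio −0.17, 95% interval −0.53 to 0.19), and the upper class was below the middle (−1.26, −1.76 to −0.77). The upper class was 2.69-fold below the lower (log2 ratio −1.43, interval −1.92 to −0.95), with −1.15 in pool 1 and −1.82 in pool 2. In single cells the median was 94.6 CPM in the lower class, with a highest cell of 424.6, and 0 CPM in the upper class, with a highest cell of 257.4. After thinning, 66.1% of the cells of the lower class and 25% of those of the upper class had an Itga6 UMI, against 74.6% and 45.3% before it.

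Itgal showed the opposite order. It stood at 17.2, 38.3 and 60.8 CPM from the lower to the upper CD135 class, and each step had an interval above 0 (middle over lower 1.15, 0.39 to 1.96; upper over middle 0.67, 0.12 to 1.23). The upper class was 3.53-fold above the lower (log2 ratio 1.82, interval 1.11 to 2.58), with 1.31 in pool 1 and 2.24 in pool 2. Pool 1 gave 17.4, 35.5 and 43.1 CPM and pool 2 gave 16.99, 41.2 and 80.1 CPM, so the pools were close in the lower class and apart in the upper. Thinned shares of cells with a UMI were 16.9%, 26.3% and 55.4%.

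**Figure D2:**
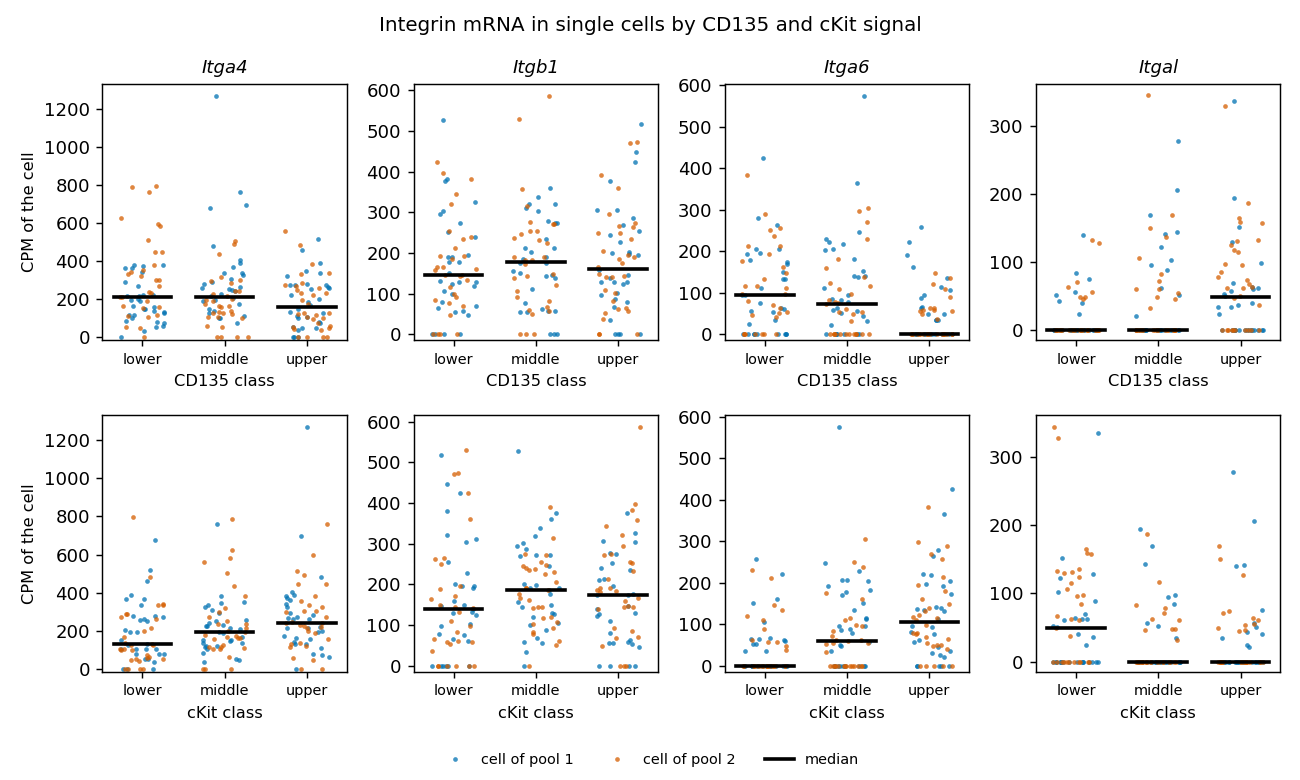
Each point is 1 cell, with its CPM on the y axis, placed by its class of the CD135 signal (top row) or the cKit signal (bottom row) on the x axis, and black lines are medians over cells. For Itga6 the median falls at 0 CPM in the upper CD135 and the lower cKit class, for Itgal it lies above 0 in those same classes alone, and Itga4 and Itgb1 have medians above 100 CPM in every class.

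Itga4 and Itgb1, the VLA-4 chains, were broadly present. Itga4 stood at 250.5, 252.8 and 189.8 CPM over the CD135 classes, and its upper class was 1.32-fold below the lower (log2 ratio −0.40, interval −0.65 to −0.15). The pools did not show this alike: pool 1 had 193.1 CPM in the lower and 196.3 in the upper class (log2 ratio 0.02), whereas pool 2 had 317.8 and 182.8 CPM (−0.80). In the middle class pool 1 had 300.3 and pool 2 had 204.3 CPM. Middle over lower was thus 0.64 in pool 1 (interval 0.31 to 0.97) and −0.64 in pool 2 (−0.98 to −0.30). Itgb1 stood at 180.1, 185.1 and 174.8 CPM (log2 ratio −0.04, interval −0.32 to 0.23), an interval that leaves room for a level up to 1.25-fold lower.

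Itgam stood at 12.5, 35.9 and 31.6 CPM, with a log2 ratio of 1.34 between the upper and lower CD135 class (interval 0.46 to 2.28; 2.22 in pool 1 and 0.84 in pool 2). It was already at that level in the middle class (middle over lower 1.52, interval 0.66 to 2.44). Of the 5 monocyte and macrophage markers, all had UMIs in the lower and middle class and 4 in the upper, and their summed level moved alongside, at 14.1, 43.2 and 40.0 CPM. Without the 58 cells that held a UMI of those markers, the Itgam ratio was 1.66. Its partner Itgb2 stood at 25.1, 28.5 and 31.6 CPM (log2 ratio 0.34, interval −0.38 to 1.06), and the pools differed in sign, at −0.45 in pool 1 and 0.75 in pool 2.

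Itgb3 had 11, 5 and 0 UMIs in the lower, middle and upper CD135 class. With the upper count set to a floor of 3 UMIs, the upper class was 3.45-fold below the lower. The counting interval for both pools allowed a difference as small as 2.36-fold. In pool 1 alone it allowed one as small as 1.07-fold, and in pool 2 alone the interval spanned 0. Neither pool had a UMI in the upper class. Of the 4 megakaryocyte and platelet markers, all had UMIs in the lower and middle class and 2 in the upper, and their summed level moved in the same direction, at 42.3, 18.8 and 8.33 CPM. Without the 53 cells that held a UMI of those markers, Itgb3 had 6 UMIs left in the lower and upper class together, and the Itga6 ratio was −1.40. Erythroid markers (76.7, 7.34 and 5.83 CPM) and mast cell and basophil markers (174, 63.6 and 15.8 CPM) were also higher in the lower class, and their part in the Itga6 and Itgb3 values was not tested.

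Itgb7, whose product pairs with α4 in a gut-homing receptor, had 5, 8 and 16 UMIs over the CD135 classes, or 3.91, 6.52 and 13.3 CPM. The upper class was 3.40-fold above the lower (log2 ratio 1.77, interval 0.25 to 3.57), with 1.60 in pool 1 and 2.36 in pool 2. These counts are small, and in pool 2 they were 1, 3 and 5 UMIs.

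A ratio of at least 1.5 with at least 100 UMIs over the upper and lower class was taken as past the fold. By CD135, 3 members had that many UMIs and 1 of them, Itga6, was past the fold, in the lower direction, which 6.8% of the 4323 genes with as many UMIs also were, while 6.04% were past it in the higher direction. Itgal missed the minimum with 95 UMIs. From 50 UMIs, 3 of 6 members were past the fold in either direction (Itga6, Itgal and Itgam), against 18.3% of 7232 genes. The median log2 ratio was −0.40 over the 3 members, which is the Itga4 value, and −0.03 over all genes. From 50 UMIs it was 0.15 over the 6 members and −0.04 over all genes, so its sign depended on the minimum.

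**Figure D3:**
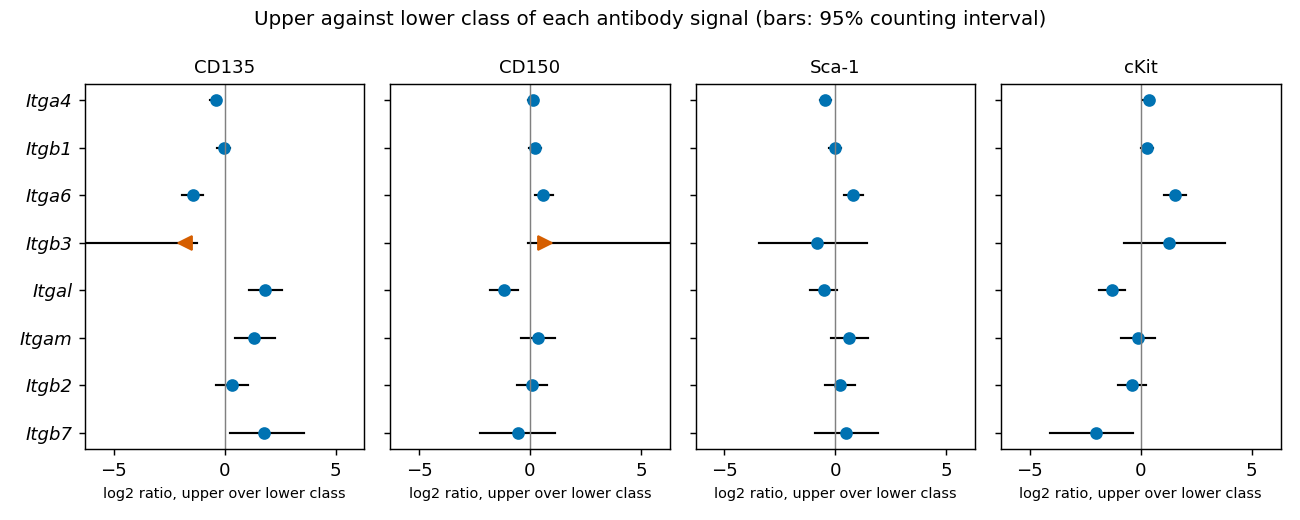
Log2 ratio of the upper over the lower class (x axis) for each gene (rows) and each of the CD135, CD150, Sca-1 and cKit signals (panels). Circles are ratios with 95% counting intervals, and triangles for Itgb3 are ratios with 3 UMIs in place of 0. Itga6 lies below 0 for CD135 and above 0 for the other 3 signals, and Itgal lies above 0 for CD135 and below 0 for CD150 and cKit.

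By CD150, Itga6 and Itgal were the members whose interval lay wholly to one side of 0. Itga6 stood at 71.9, 68.6 and 109.6 CPM from the lower to the upper class, 1.53-fold higher in the upper (log2 ratio 0.61, interval 0.21 to 1.02; 0.55 and 0.67 in the pools). Itgal stood at 57.3, 35.5 and 25.8 CPM, 2.22-fold lower in the upper class (log2 ratio −1.15, interval −1.78 to −0.54; −1.31 and −1.01 in the pools). Itgb3 had no UMI in the lower class, 10 in the middle and 6 in the upper. Itga4, Itgam, Itgb1, Itgb2 and Itgb7 had intervals spanning 0.

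The CD150 difference of Itga6 was close to the fold used. It was past it as 1 of 3 members with 100 UMIs, beside 4.37% of 4367 genes that were higher and 3.89% that were lower, but in pool 1 alone it was under the fold and in pool 2 alone it had under 100 UMIs. From 50 UMIs 2 of 6 members were past it, beside 13.9% of genes. Megakaryocyte and platelet markers were at 16.4, 12.4 and 38.7 CPM over these classes, and without the cells that held them the Itga6 ratio was 0.36.

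Sca-1, the stem cell antigen encoded by Ly6a, separated Itga6 and Itga4. Itga6 stood at 58.9, 96.3 and 102.4 CPM, 1.74-fold higher in the upper than in the lower Sca-1 class (log2 ratio 0.80, interval 0.37 to 1.23; 0.96 and 0.55 in the pools). Itga4 went the other way, at 264.0, 234.4 and 191.8 CPM (log2 ratio −0.46, interval −0.71 to −0.21). The other 6 members had intervals spanning 0, namely Itgal (−0.53, −1.15 to 0.06), Itgam (0.61, −0.21 to 1.46), Itgb1 (−0.01, −0.29 to 0.27), Itgb2 (0.22, −0.45 to 0.88), Itgb3 (−0.82, −3.45 to 1.41) and Itgb7 (0.47, −0.94 to 1.92). Past the fold was 1 of 4 members, Itga6, beside 5.79% of 4283 genes that were higher and 4.69% that were lower. From 50 UMIs Itgam joined it, making 2 of 6 against 16.5% of genes. Mast cell and basophil markers stood at 168.3, 47.4 and 34.7 CPM over the Sca-1 classes, and their part in the Itga4 value was not tested. Megakaryocyte and platelet markers stood at 16.1, 23.3 and 32.1 CPM, and without the cells that held them the Itga6 ratio was 0.58.

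Along cKit, the stem cell factor receptor, the order of the CD135 classes was turned around. Itga6 stood at 40.97, 86.6 and 118.9 CPM from the lower to the upper cKit class, 2.90-fold higher in the upper (log2 ratio 1.54, interval 1.06 to 2.04; 1.62 and 1.44 in the pools). Itgal stood at 65.9, 25.5 and 27.1 CPM, 2.44-fold lower in the upper class (log2 ratio −1.28, interval −1.89 to −0.70; −0.72 and −1.72 in the pools), and its middle and upper classes did not differ beyond counting error (0.09, −0.64 to 0.83). Itga4 was 1.29-fold higher in the upper class (log2 ratio 0.37, interval 0.12 to 0.61), at 202.2, 225.1 and 260.6 CPM. Over alternatives this ratio ranged from 0.10, with 24 cells per class and pool, to 0.66, without the 14 cells of high CD127 signal. Itgb7 had 13, 12 and 4 UMIs (log2 ratio −2.02, interval −4.10 to −0.33), and −0.37 with 48 cells per class and pool.

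The remaining 4 members had upper-to-lower intervals by cKit that spanned 0: Itgb1 (log2 ratio 0.28, −0.00 to 0.56), Itgam (−0.13, −0.91 to 0.66), Itgb2 (−0.39, −1.05 to 0.26) and Itgb3 (1.26, −0.74 to 3.78, from 9 and 3 UMIs). Itgb2 was lowest in the middle cKit class, at 38.3, 17.8 and 29.2 CPM, and its middle class was below the lower (−1.10, −1.93 to −0.32; −1.53 and −0.86 in the pools).

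Past the fold by cKit were 2 of 4 members, Itga6 higher and Itgal lower, beside 6.22% of 4402 genes that were higher and 4.38% that were lower. From 50 UMIs the same 2 were past it out of 6 members, beside 15.5% of genes. The lower cKit class, where Itgal was highest, also held more monocyte and macrophage marker UMIs (49.9, 21.2 and 27.1 CPM) and B-cell marker UMIs (65.01, 12.7 and 17.1 CPM). Cells with a monocyte or macrophage marker UMI numbered 28, 15 and 15 over these classes. Those with a B-cell marker UMI numbered 15, 13 and 18, so they were not more frequent in the lower class than in the upper. Without the cells that held monocyte and macrophage markers the Itgal ratio was −1.81. Without the 46 cells that held B-cell markers it was −1.42.

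CD135 and cKit did not divide the cells independently: 43 of the 64 CD135-upper cells lay in the lower cKit class and 2 in the upper, and 36 of the 63 CD135-lower cells lay in the upper cKit class. Ratios were therefore also taken along one signal within classes of another, a choice made after the values above were seen. Itgal was higher in CD135-upper than in CD135-lower cells within the lower (log2 ratio 2.24, interval 0.32 to 5.32) and the middle cKit class (2.00, 0.36 to 4.04), and within the lower (1.54), middle (3.02) and upper (3.72) Sca-1 class, the last against 1 UMI (interval 1.13 to 9.08) and the middle against 2 (0.99 to 6.16). Within the upper cKit class only 2 cells were CD135-upper and the interval spanned 0.

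Itga6 was lower in CD135-upper cells within each Sca-1 class, at −1.44, −1.98 and −1.62 from the lower to the upper, with all 3 intervals below 0. The Sca-1 difference of Itga6 was likewise found within the lower (1.13, interval 0.44 to 1.80) and middle (0.85, 0.10 to 1.67) CD135 class, while in the upper it was 0.95 with an interval from −0.28 to 2.32. Among CD135-lower cells, Itga6 stood at 68.6 CPM with Sca-1 in the lower (34 cells), 181.9 CPM in the middle (17 cells) and 150.3 CPM in the upper class (12 cells). Among CD135-upper cells the same order gave 25.3 CPM (16 cells), 46.1 CPM (25 cells) and 48.8 CPM (23 cells), each below its CD135-lower counterpart. By cKit within CD135, Itga6 was higher in the upper class among CD135-lower (1.09, interval 0.05 to 2.34) and CD135-middle cells (1.17, 0.20 to 2.29). Its cKit ratio among CD135-upper cells, of which 2 were cKit-upper, is not given here. Nor are the CD135 ratio of Itga6 within cKit classes and the cKit ratio of Itgal within CD135 classes. The CD135 difference of Itga6 is thus not shown apart from cKit. By CD150, all 3 intervals within CD135 classes spanned 0.

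Gates on CD150 and CD135 together gave the same opposed pattern for α6 and αL. Gates were set by rank in each pool. Those 33 cells that ranked in the top 24 for CD150 and in the bottom 48 for CD135 formed the stem gate. The 62 remaining cells of the bottom 48 for CD135 formed the intermediate gate. The 40 cells in the top 24 for CD135 but outside it for CD150 formed the CD135-high gate. The gate names rest on these ranks alone, and whether the cells of the stem gate were stem cells was not tested. Median CD150 signals were 44.7, 69.7 and 110.0 units in the lower, middle and upper CD150 class. Itga6 stood at 128.1, 90.96 and 36.4 CPM in the stem, intermediate and CD135-high gate, and Itgal at 11.4, 30.3 and 62.04 CPM. With both pools summed, every step between neighbouring gates had an interval wholly to one side of 0 for both genes. In single pools, intermediate over stem had an interval spanning 0 for Itga6 in pool 2 (−0.20) and for Itgal in pool 1 (0.81). So did CD135-high over intermediate for Itgal in pool 1 (0.66). From the stem to the CD135-high gate the log2 ratio was −1.82 for Itga6 (interval −2.49 to −1.19) and 2.44 for Itgal (1.39 to 3.66).

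**Figure D4:**
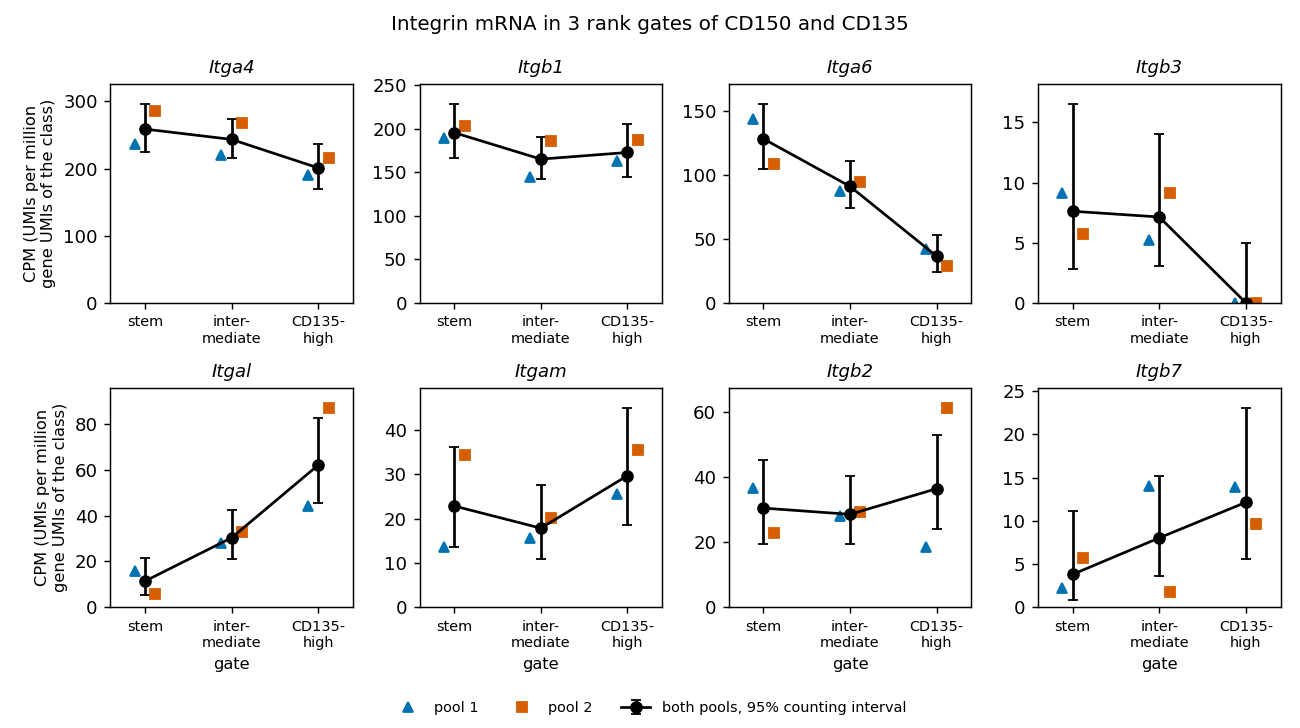
Level of each integrin mRNA (y axis, CPM, from 0) in the stem, intermediate and CD135-high gate (x axis), with black points for both pools and 95% Poisson intervals, triangles for pool 1 and squares for pool 2. In both pools Itga6 is lower and Itgal higher at each gate from left to right, and Itgb3 is at 0 in the CD135-high gate.

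In the same gates Itga4 stood at 258.8, 243.4 and 201.0 CPM, with a log2 ratio of −0.36 between the CD135-high and stem gate (interval −0.68 to −0.05). Itgb1 stood at 195.4, 164.97 and 172.6 CPM, Itgam at 22.8, 17.8 and 29.7 CPM and Itgb2 at 30.4, 28.5 and 36.4 CPM, and with both pools summed no interval between any 2 gates excluded 0 for these 3. For Itgb2 the pools went apart: from the stem to the CD135-high gate its log2 ratio was −0.97 in pool 1 (interval −2.41 to 0.33) and 1.42 in pool 2 (0.16 to 2.82). Itgb3 had 6, 8 and 0 UMIs and Itgb7 3, 9 and 9. The Itgam difference seen over the CD135 classes was thus not seen between these gates (0.38, interval −0.59 to 1.36).

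For Itgam the sorter also measured the protein, CD11b. Itgam mRNA stood at 25.5, 31.1 and 23.2 CPM from the lower to the upper class of the CD11b signal (log2 ratio −0.13, interval −0.90 to 0.65; −0.51 in pool 1 and 0.24 in pool 2). Median CD11b signals were 49.5, 99.6 and 183.1 arbitrary units, and the antibody list in the protocols, given as a selection, does not name CD11b. With 98 Itgam UMIs in all, differences inside that interval were not detectable. Of the members that do not encode that protein, Itga4 had a log2 ratio of 0.37 (interval 0.12 to 0.62; 0.58 and 0.15 in the pools) and Itgal −0.79 (interval −1.39 to −0.20), with opposite signs in the pools (0.29 and −1.58). The other 5 had intervals spanning 0.

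A functional integrin needs both chains, so cells with a UMI of both were counted after thinning. Itga6 and Itgb1 occurred together in 32 of 59 CD135-lower cells (54.2%, exact 95% interval 40.8 to 67.3), 27 of 57 CD135-middle cells (47.4%) and 14 of 56 CD135-upper cells (25%, 14.4 to 38.4). Over the cKit classes the same pair was found in 19.2%, 43.1% and 61.3% of cells, and in the stem gate in 22 of 32 cells (68.8%). Every one of the 14 CD135-upper cells with an Itga6 UMI also had an Itgb1 UMI. Itgb1 itself was found in 48, 47 and 48 cells over the CD135 classes, or 85.7% of cells in the upper. Itga6 was found in 39, 35 and 14 cells, so the pair shares over these classes followed those of Itga6. Whether the chains shared cells more often than these single-gene counts give was not tested.

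Itga4 and Itgb1 occurred together in 74.6%, 77.2% and 71.4% of cells over the CD135 classes, with overlapping intervals, and in 59.6%, 77.6% and 83.9% over the cKit classes. Itgal and Itgb2 were found together in 5.08%, 7.02% and 17.9% of cells over the CD135 classes (3, 4 and 10 cells), and in 0 of 32 stem-gate and 7 of 33 CD135-high cells. Before thinning the pair was seen in 4 of 33 stem-gate and 9 of 40 CD135-high cells. After thinning, Itgal was found in 10, 15 and 31 cells over the CD135 classes and Itgb2 in 14, 15 and 15. The share of this pair thus rose with that of Itgal. Itgam with Itgb2 was found in 0, 4 and 5 cells and Itga4 with Itgb7 in 0, 5 and 6 cells over the CD135 classes, and before thinning in 3, 7 and 8 and in 4, 7 and 13 cells. A missing UMI does not show that a chain is absent at this depth, since Itgb2 itself had a UMI in 32.98% of cells.

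In 14 cells the CD127 signal, the interleukin-7 receptor of lymphoid progenitors, was above 2000 units. Against the other 177 cells, these had more Itga4 (349.1 against 221.1 CPM; log2 ratio 0.66, interval 0.35 to 0.95), Itgal (69.2 against 35.6 CPM; 0.96, 0.22 to 1.64) and Itgb2 (55.99 against 25.9 CPM; 1.11, 0.27 to 1.87). They had less Itga6 (36.2 against 89.4 CPM; −1.30, −2.32 to −0.44) and 1 Itgam UMI against 97 (−3.11, −8.43 to −0.60). Itgb1 (148.2 and 182.9 CPM), Itgb3 (2 and 14 UMIs) and Itgb7 (1 and 28 UMIs) had intervals spanning 0. The 17 Itgb2 UMIs lay in 5 of the 14 cells, and the shares of cells with a UMI were 35.7% and 32.8%. In pool 1 alone the intervals of Itgal (0.57, −0.94 to 1.79), Itgb2 and Itgam spanned 0. In pool 2 alone those of Itga4 (0.38, −0.07 to 0.81) and Itga6 (−0.76, −2.00 to 0.27) did. Most of these 14 cells had a cKit signal below 4254.8 units, the median of the lower cKit class. Most also lay in the upper CD135 class, where Itga6 was lower and Itgal higher. The part of the cKit and CD135 signals in the CD127 values was not tested. These cells were compared after the other values had been seen.

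Genes that act with integrins were read from 5 lists. Of 18 other integrin subunits, 11 had a row, and none had 100 UMIs over an upper and lower class; Itgav had 75 UMIs in all, Itga2b 71, Itgb5 64 and Itga9 61. None of the 12 ligand genes reached 100 UMIs. Of 16 activation genes, 11 were measured at that level by CD135, and 1 was past the fold: Rasgrp2, which activates the Rap1 switch upstream of integrins, was higher in CD135-upper cells (91.6 against 58.7 CPM; log2 ratio 0.64). It was lower in the upper CD150 (−0.59) and cKit (−0.70) class, again the only 1 of 11, and by Sca-1 none of 11 was past the fold. The shares over all genes in each direction are those given above for each signal (for CD135, 6.04% higher and 6.8% lower), and 1 of 11 is near them.

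Of 30 adhesion signalling genes, 20 were measured by each of CD135, CD150, Sca-1 and cKit, and 1 was past the fold by each, a share near that over all genes. Lims1, the PINCH adaptor that binds integrin-linked kinase, was higher in CD135-upper cells (171.5 against 86.9 CPM; log2 ratio 0.98) and lower in CD150-upper cells (−0.61). Parvg, a parvin of the same complex in blood cells, was lower in cKit-upper cells (128.2 against 204.8 CPM; −0.68). Actn1, an actin crosslinker, was higher in Sca-1-upper cells (64.2 against 31.4 CPM; 1.03).

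Among 11 membrane partners of integrins, 7 were measured by each of the 4 signals. By CD135, 2 were past the fold in the higher and 1 in the lower direction, beside 6.04% and 6.8% of all genes, and by Sca-1 none was. The tetraspanins Cd53 (221.4 against 92.4 CPM; log2 ratio 1.26) and Cd37 (175.7 against 96.3 CPM; 0.87) were higher in CD135-upper cells, and the tetraspanin Cd63 was lower (42.5 against 126.04 CPM; −1.57). Cd53 was lower in the upper CD150 (−0.78) and cKit (−0.98) class and Cd37 in the upper cKit class (−0.61), whereas Cd63 was higher in the upper CD150 class (0.64). All these values had the same sign in both pools. By CD135 the list medians were 0.13 for activation, 0.15 for adhesion signalling and 0.09 for membrane partners, against −0.03 over all genes. Farther from the median of all genes were adhesion signalling by Sca-1 (0.25 against −0.01) and activation by cKit (−0.16 against 0.04).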

How the data were processed

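The deposited counts are whole UMIs for each gene in each cell, not normalized by the authors. Per the labels' protocols, CEL-seq2 primed on poly(A) with UMIs of 6 bases. The aligner is not given in the sources used here, nor is the counting tool. The submitters' processing notes name GRCh38, a human build, although every identifier is a mouse one. Symbols and positions were matched by identifier to GENCODE M21 (GRCm38), and promoter windows by symbol to RefSeq (4 of 8 members).

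Pools were read from the index that opens each title. A cell needed 20% of the median UMIs of its pool, which left out 1 cell with 708 UMIs. Signals were ranked within each pool, 32 cells per class. Spike-ins (71) stayed out of CPM totals. Ratios of summed UMIs have exact conditional binomial 95% intervals, levels exact Poisson and shares exact Clopper-Pearson intervals. The calculation was tested on simulated data. Python 3.11.15, pandas 2.3.3, numpy 2.4.6, scipy 1.17.1 and matplotlib 3.10.9 were used.

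Members and gene lists were chosen with earlier results of these data known. The rule named all 8 members; from the other lists, up to 4 genes each with at least 100 UMIs, past 1.5-fold and with the same sign in both pools; levels of other integrins and of markers were added after their values were seen. The ratios within classes of another signal, the CD127 comparison, the motifs and 4 alternatives that leave out cells were also chosen after seeing values. Alternatives changed the class size, ranking, pool, cell filter, averaging, depth, total, top cell and UMI minimum.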

Additional observations from a re-analysis of the deposited data

How the results depend on the processing

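Direction was steadier than the number of members past 1.5-fold. By CD135, CD150, Sca-1 and cKit, 6, 2, 2 and 4 of the 8 members had an interval that excluded 0. The share of all genes with such an interval is not given here, so these counts are not a result about integrins. Of these 14 combinations of member and signal, 13 kept their sign in all 15 alternatives, which reuse the same cells. The exception was Itga4 by CD135, which had a log2 ratio of 0.0237 in pool 1 alone, against −0.40 overall. Itga6 ranged from −1.82 to −0.77 by CD135 and from 0.65 to 1.79 by cKit, and Itgal from 1.28 to 2.39 by CD135 and from −1.81 to −0.72 by cKit; the values nearest 0 for Itga6 came from classes of 48 cells per pool, to which the middle cells are added. For Itgam by CD11b, the ratio ranged from −0.70 to 0.24, inside its interval. By CD135, 2 members were past the fold with 48 cells per class and pool and 3 from 50 UMIs, against 1. By CD150 the count was 0 in pool 1 alone, in pool 2 alone, with cells from 50% of the median UMIs, with thinned cells, without the top cell of each gene, and without cells holding megakaryocyte and platelet or B-cell markers, and 2 from 50 UMIs, against 1. By Sca-1 it was 0 in pool 2 alone and 2 with 24 cells per class and pool, with the mean of the cells' CPM and from 50 UMIs, against 1. By cKit it was 1 with 24 cells per class and pool, in pool 1 alone, in pool 2 alone, with thinned cells, and without cells holding megakaryocyte and platelet or B-cell markers, against 2; Itga6 was the member past the fold in each of these 6. Fewer cells also leave fewer members with 100 UMIs: in pool 2 alone, Itga4 and not Itga6 was the member counted by CD135. By CD135, Itgam ranged from 0.75 to 2.22 and Itgb7 from 0.59 to 3.08. The Itgb3 ratio with the floor, which depends on the UMIs left, ranged from −2.72 to −0.70. Depth limits Itgb3 and Itgb7 most, with 16 and 29 UMIs over all cells. No paired analysis was possible because the ratios come from no test across samples, the cells being 1 sample.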

Other observations

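Over the 191 cells, genes were ranked by their Pearson correlation with each member of at least 300 UMIs, on log2(CPM / 100 + 1) centred within each pool. For Itga6 the highest among 1198 genes were Angpt1 (r = 0.33), Adgrg1 (0.33) and Bin2 (0.31). For Itga4 they were Pitpnc1 (0.33), Arid1a (0.26) and Hnrnpu (0.25), and for Itgb1 Sfr1 (0.25), Amd1 (0.21) and Atp5g1 (0.20). The cells share libraries and depth, the values are weak, and they serve as a description of sparse counts.

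Outside the 8, 2 integrin genes reached 50 UMIs over an upper and lower class in some comparison, and are named here after their values were seen. Itga2b reached it by CD150 alone and Itgav by Sca-1 alone. With 71 and 75 UMIs in all, the minimum can itself favour a signal with a high class, so their ratios are a description only. From 50 UMIs, 13.9% of 7275 genes were past 1.5-fold by CD150 and 16.5% of 7164 by Sca-1. Itga2b, which encodes the αIIb chain of megakaryocytes, was higher in CD150-upper cells (log2 ratio 1.62). Itgav, encoding the αv chain, was higher in Sca-1-upper cells (1.02).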
